A study of Mus musculus with 6 samples.

Results

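Fatty acid oxidation breaks fatty acids down to acetyl-CoA in mitochondria and peroxisomes, and the PPAR nuclear receptors switch many of its genes on. The genes described here are 33 named members of this pathway, its PPAR receptors and PPAR target genes, matched by symbol. The list was chosen with earlier results of these data known. Of these, 32 had a probe set that carries their symbol alone, out of 18193 genes measured. Cpt1b, the muscle form of the carnitine acyltransferase, shared its only probe set with other symbols and was not analysed here. Where a gene had several probe sets, the brightest on average was used, and 29 of the 32 reached a group mean of 6 or more on the log2 scale, called bright below. The dim members were Ehhadh, Acot1 and Ppara.

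The samples were cultures of mouse mesenchymal stem cells, commercial stromal cells that can become fat, bone or cartilage cells. All cultures, controls included, were grown in medium with 5% serum and received a mixture known to drive fat cell formation, given again 48 h before exposure. Its parts were 1 µM rosiglitazone, 5 µg/ml insulin, 100 µM of IBMX (which blocks phosphodiesterases) and 1 µM dexamethasone (a glucocorticoid). Rosiglitazone is itself a ligand of PPARγ, so PPAR target genes were read here under a PPAR agonist in both groups. The irradiated group was exposed for 12 h to terahertz radiation centred near 10 THz, in pulses of 35 fs at 1 kHz and 1 mW/cm2 on average. The control group was not irradiated and stood beside it, and both were kept at 26 to 27 °C. Each of 3 independent experiments gave 1 irradiated and 1 control array, 6 arrays in all. The SD given is that of the 3 arrays of a group. The SE is the moderated one of the limma model, which also draws on the variance of all other probe sets. It is therefore not the spread between the 3 experiments alone. Values are on the log2 scale, so a difference of 1 is a doubling, and differences are irradiated minus control of the same experiment.

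As background, long-chain fatty acids enter mitochondria as carnitine esters. The acyltransferase Cpt1 makes the ester on the outer side, the carrier Slc25a20 moves it across, and Cpt2 turns it back to acyl-CoA inside. Each round of oxidation then uses a dehydrogenase, a hydratase, a second dehydrogenase and a thiolase, and electrons leave through the flavoprotein Etfa, Etfb and Etfdh. Very long chains start in peroxisomes, and acyl-CoA thioesterases release free acids from the pathway. In fat cells the pathway runs beside lipid storage, and Pdk4 and Angptl4 are PPAR targets that spare glucose and limit fat uptake.

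Promoter sequences are shown for the members that hold the receptor's core hexamer close to their start, and for the gene pair that shares a promoter. RefSeq's table (build GRCm38.p6) held promoters for 26 of the 33 members. PPAR binds with RXR to a direct repeat with a spacer of a single base. That repeat, AGGTCANAGGTCA on either strand, lay in the 250 bases before the start of 0 of these 26 and of 0.0335% of all 32851 promoters. The looser AGGNCANAGGNCA lay in 0 of 26 and in 0.338% of all. The single hexamer AGGTCA, which is part of the strict repeat, lay in 4 of 26, or 15.4%, against 14% of all promoters. A match describes letters and not a bound site. The absence of a match says nothing of the factor. The hexamer, in either orientation, is in capitals, and each sequence is written on its gene's strand. The Cpt1a window (chr19:3323051-3323300, plus strand) is given whole, because Cpt1a had the largest statistic of the members. Its match begins at position -94 from the start. The other windows are 60 bases long, for Acadm (chr3:153944834-153944893, minus strand, match at -249), Acadvl (chr11:70015483-70015542, minus strand, match at -87) and Echs1 (chr7:140116472-140116531, minus strand, match at -83).
Cpt1a: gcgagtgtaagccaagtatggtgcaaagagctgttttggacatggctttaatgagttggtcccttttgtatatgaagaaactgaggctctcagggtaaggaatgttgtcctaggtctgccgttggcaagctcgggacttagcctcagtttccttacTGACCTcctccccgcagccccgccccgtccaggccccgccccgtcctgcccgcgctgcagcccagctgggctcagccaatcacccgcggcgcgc
Acadm: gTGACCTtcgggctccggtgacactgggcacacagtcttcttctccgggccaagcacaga
Acadvl: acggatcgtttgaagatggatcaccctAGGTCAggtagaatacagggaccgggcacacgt
Echs1: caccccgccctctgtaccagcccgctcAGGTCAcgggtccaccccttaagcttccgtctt

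Hadha and Hadhb, which encode the 2 subunits of the mitochondrial trifunctional protein, lie head to head on chromosome 5. Their starts are 272 bases apart and on opposite strands, so their promoter windows overlap over 228 bases (chr5:30155003-30155230). The shared stretch is shown on the plus strand, that of Hadhb, because it is the same DNA for both genes.
Hadha and Hadhb: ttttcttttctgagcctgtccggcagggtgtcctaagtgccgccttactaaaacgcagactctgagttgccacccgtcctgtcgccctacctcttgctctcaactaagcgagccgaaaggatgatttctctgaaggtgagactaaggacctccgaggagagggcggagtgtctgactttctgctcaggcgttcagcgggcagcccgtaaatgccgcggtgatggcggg

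No probe set of 45037 passed limma's moderated test with the experiment as a block after Benjamini-Hochberg adjustment at 0.05 (0% of genes), with 0.188 as the smallest adjusted p. Without adjustment, limma's p was under 0.05 for 8.31% of all genes and 10.8% of bright genes. Array medians lay between 4.74 and 4.80. Of the stromal markers 10 of 11 measured were bright, Thy1 being the exception at 4.11 in controls. Of fat cell markers 8 of 9 were bright (not Lep), and of macrophage markers 14 of 15 (not Cd74). The macrophage genes Csf1r and Lyz2 had control means of 13.03 and 14.21 in these cultures labelled as stem cells. Of endothelial, muscle and hepatocyte markers, 0 of 8, 0 of 8 and 0 of 7 were bright. The 18 probe sets for spiked-in hybridisation controls differed by 0.08, -0.03 and 0.50 in experiments 1, 2 and 3.

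Most members were higher with irradiation in experiment 1 and most were lower in experiment 3. In experiment 1, 22 of 32 were higher in irradiated cells (48% of all genes were), with a median difference of 0.145. In experiment 2, 17 were higher (52.3% of all genes were) and 14 lower, with a median of 0.02. In experiment 3, 29 of 32 were lower (49.9% of all genes were), with a median of -0.165. The exceptions in experiment 3 were Eci1, Acot2 and Ppara. Among bright genes, 27 of 29 members were lower in experiment 3, against 49.1%. Of the 32, 20 were higher in experiment 1 and lower in experiment 3 (21.4% of all genes were), and Ppara alone did the reverse (21.6% of all genes did). Among bright genes it was 19 of 29 members against 20.4%. Those 20 include all 7 acyl-CoA dehydrogenase and electron acceptor genes, Pdk4 and Angptl4. Each experiment is 1 pair of arrays, so these differences have no replicate within an experiment. Over bright genes the SD of the differences was 0.205 in experiment 1 and 0.318 in experiment 3. The mean over experiments averages differences of opposite sign, and the members' median of -0.02 lay beside 0.01 for all genes. It was 0.07 without experiment 3 and -0.09 without experiment 1. Without experiment 3, 19 members had a mean difference above 0, and without experiment 1, 9 did. No share over all genes is given for these counts.

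**Figure D1:**
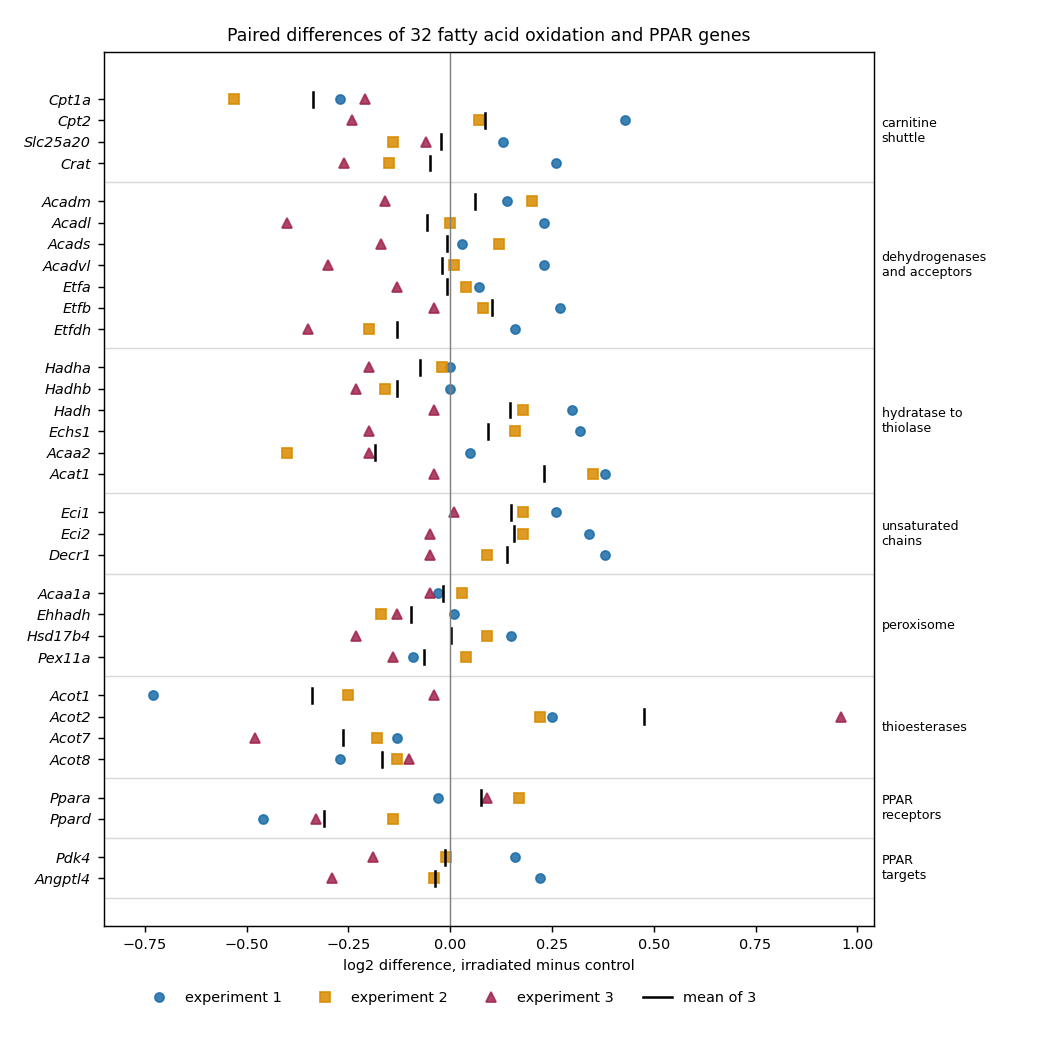
Log2 difference between irradiated and control cultures for each of the 32 measured members, grouped by role, with 1 symbol per experiment and a bar at the mean. The triangles of experiment 3 lie left of 0 for 29 members and the circles of experiment 1 lie right of 0 for 22.

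The opposite directions had a counterpart in the levels of single arrays. Averaged over the 32 members, the log2 level was 8.90, 8.91 and 8.91 on the control arrays of experiments 1, 2 and 3. On the irradiated arrays it was 8.98, 8.90 and 8.77. The irradiated arrays thus spread more than the controls. The irradiated array of experiment 3 was the lowest of the 3 irradiated arrays for 24 of 32 members (31.1% of all genes), all 24 of them bright (36.3% of bright genes). Control array 1 was the lowest control for 14 of 32 (36.2% of all genes).

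Fat cell markers, none of which is a member, had median differences of the same signs. Their median differences were 0.09, 0.01 and -0.15 in experiments 1, 2 and 3, with 7 of 9 higher in experiment 1 and 7 of 9 lower in experiment 3. Their mean level was 9.72, 9.92 and 9.95 on the control arrays and 9.84, 9.85 and 9.73 on the irradiated arrays. Single markers did not all follow. The hormone gene Adipoq differed by 0.22, 0.03 and 0.01, the glucose transporter gene Slc2a4 by -0.21, -0.14 and -0.32, and Retn by 0.05, 0.02 and -0.31. Pparg and Cidec had wide swings and are singled out with their values known. Pparg, the receptor that drives fat cell formation, differed by 0.34, 0.03 and -0.47. The lipid droplet gene Cidec differed by 0.50, -0.23 and -0.61. In such bulk samples fewer fat cells and less RNA per cell cannot be told apart. Macrophage markers differed from these signs in experiment 1 only, with medians of -0.25, 0.07 and -0.12 and 14 of 15 lower in experiment 3. Their mean level lay between 10.56 and 11.17 on control arrays and between 10.37 and 10.98 on irradiated arrays. Stromal marker medians were 0.07, 0.04 and 0.01. The part of these cell types, and of the brighter hybridisation controls in experiment 3, in the members' differences was not tested.

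**Figure D2:**
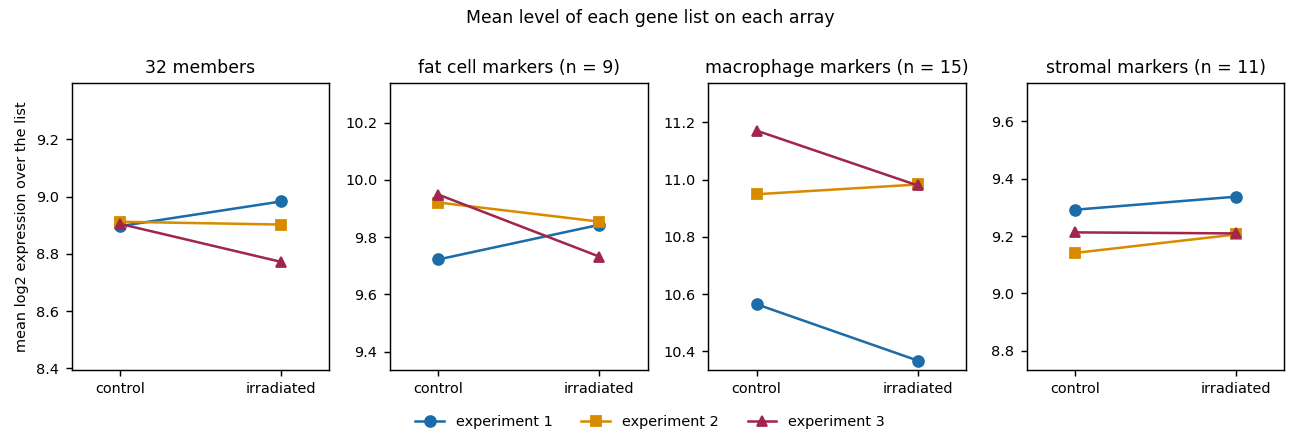
Mean log2 level over the 32 members and over 3 marker lists on each array, with lines joining the control and irradiated array of an experiment; each panel spans 1 log2 unit. The members and the fat cell markers were higher in the irradiated array of experiment 1 and lower in that of experiment 3, while macrophage markers were lower in both.

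Over the 3 experiments together, 3 members had an unadjusted p under 0.05 in limma, 9.38% of the 32 against 8.31% of all genes. They were Cpt1a and Ppard, which were lower (4.61% of all genes), and Acot2, which was higher (3.7%). Without experiment 1 no member had such a p, without experiment 2 Acot2 and Ppard did, and without experiment 3 Cpt1a, Acot1 and Acat1 did. Without the block for experiment only Cpt1a did. With the ordinary paired statistic, which uses a gene's own spread alone, 0 members did. Members of 1 sign in all 3 experiments numbered 7, or 21.9%, against 30.8% of all genes. These were Cpt1a, Acot1, Acot7, Acot8 and Ppard, which were lower, and Eci1 and Acot2, which were higher. Groups did not overlap for 3 members, or 9.38%, against 9.96% of all genes. All 3 were lower (5.4% of all genes). The shares for p, sign and overlap in either direction lie near or below the background, and no member passed adjustment over all probe sets. Adjusted p values of the members ran from 0.567 to 0.993. The SE of a member's difference lay between 0.09 and 0.16, which gives 95% intervals of ± 0.23 to ± 0.39 with 3 pairs. A difference smaller than its own interval cannot reach an unadjusted p of 0.05. Larger ones, such as those of Cpt1a and Acot2, did not pass adjustment either.

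In the carnitine shuttle, Cpt1a stood apart from the members that act after it. Cpt1a, the liver form of the enzyme that controls entry of fatty acids, read 8.97, 9.07 and 8.91 on control arrays and 8.70, 8.54 and 8.70 on irradiated arrays. Every irradiated array lay below every control array. It was 1.26-fold lower with irradiation, going from 8.98 ± 0.08 to 8.65 ± 0.09 (SD, n = 3 each). The log2 difference was -0.34 ± 0.11 (SE), with a limma p of 0.0182 and an adjusted p of 0.567. Both other Cpt1a probe sets gave much the same, -0.39 ± 0.12 (SE) and -0.35 ± 0.11 (SE), and were lower in all 3 experiments. The type suffix of both marks probes that may also bind other transcripts. The probe set at -0.35 was dim, at 5.85 in controls, and its groups overlapped. The difference of the brightest probe set was -0.24 without experiment 2.

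The other shuttle genes had both signs across experiments. Cpt2, which releases acyl-CoA inside the mitochondrion, differed by 0.43, 0.07 and -0.24. The acetyl carnitine enzyme Crat differed by 0.26, -0.15 and -0.26, and the carrier Slc25a20 by 0.13, -0.14 and -0.06. Their mean differences were 0.09, -0.05 and -0.02, each within its SE.

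**Figure D3:**
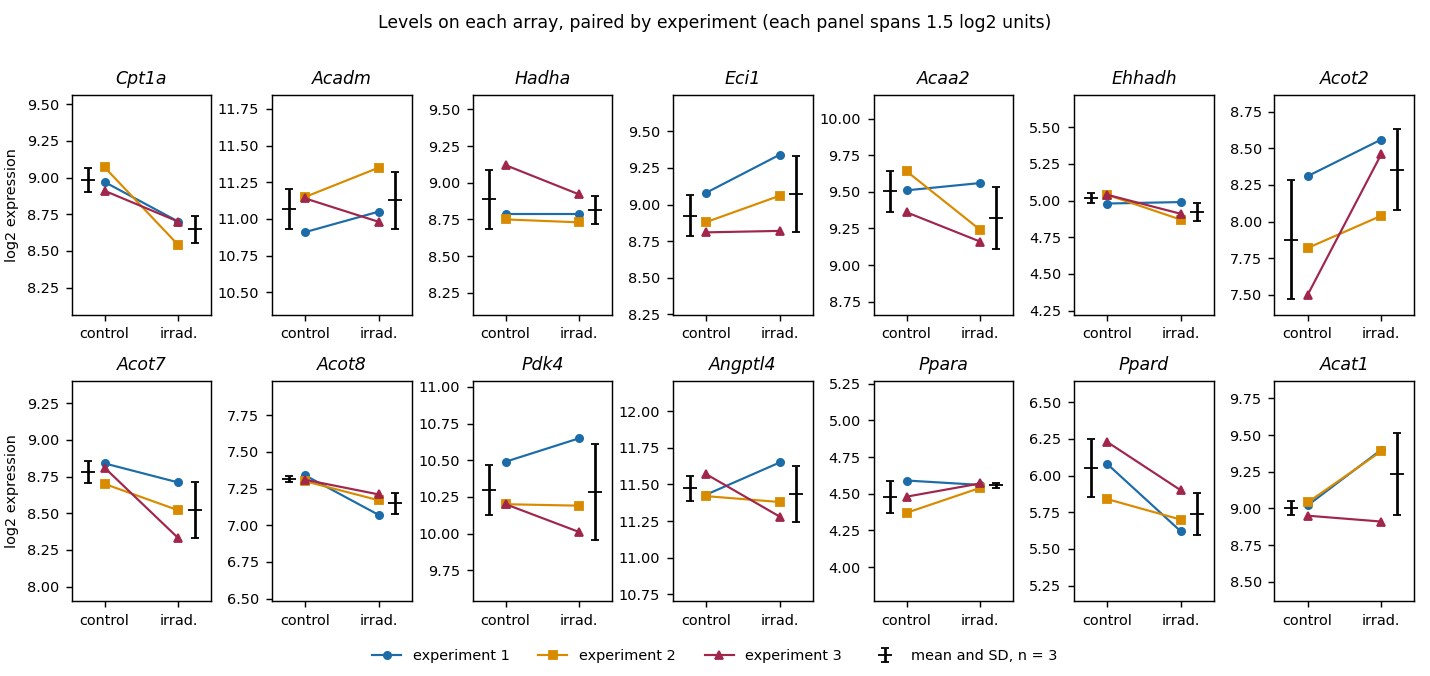
Log2 level of the 14 members described in full on each control and irradiated array, joined within an experiment, with the mean and SD of each group beside the lines. Cpt1a and Acot8 separate the groups, while the lines of experiments 1 and 3 slope in opposite directions for Acadm, Angptl4 and Pdk4.

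The acyl-CoA dehydrogenases and their electron acceptors gave mean differences between -0.13 and 0.10, and 0 of 7 reached an unadjusted p of 0.05. All 7 were higher in experiment 1 and lower in experiment 3. Acadm, the medium-chain dehydrogenase, read 10.91, 11.15 and 11.14 in controls and 11.05, 11.35 and 10.98 in irradiated cells. The groups overlapped, and the difference was 0.06 ± 0.11 (SE, 95% interval -0.21 to 0.33). The long-chain enzyme Acadl differed by 0.23, 0.00 and -0.40, and the very long-chain enzyme Acadvl by 0.23, 0.01 and -0.30. The short-chain enzyme Acads differed by -0.01 on average, from 0.12 down to -0.17. Etfdh, which passes the electrons to ubiquinone, had the lowest mean of the group, -0.13 ± 0.13 (SE), and was lower in experiments 2 and 3. Etfa and Etfb, the flavoprotein that takes electrons from the dehydrogenases, differed by -0.01 and 0.10.

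The enzymes that complete each round in the mitochondrion went both ways by small amounts, with means from -0.18 to 0.23. Hadha, which holds the hydratase and hydroxyacyl dehydrogenase of the trifunctional protein, read 8.79, 8.75 and 9.12 in controls and 8.79, 8.73 and 8.92 in irradiated cells. Irradiated arrays lay within or just below the control range, with a difference of -0.07 ± 0.10 (SE). Hadhb, its thiolase partner across the shared promoter printed above, differed by 0.00, -0.16 and -0.23, beside 0.00, -0.02 and -0.20 for Hadha. A second bright probe set of Hadhb differed by 0.18, -0.03 and -0.17. Hadh, the short-chain hydroxyacyl dehydrogenase, had a mean difference of 0.15, while its second bright probe set gave 0.03. The type suffix of the brightest Hadh and Hadhb probe sets marks probes that may also bind other transcripts. For the hydratase Echs1 the mean difference was 0.09.

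The thiolases of the matrix had mean differences of opposite sign, but within an experiment their signs differed in experiment 2 only. Neither reached an unadjusted p of 0.05 in limma. Acaa2, which cleaves medium-chain ketoacyl-CoA, read 9.51, 9.64 and 9.36 in controls and 9.56, 9.24 and 9.16 in irradiated cells. It was lower in experiments 2 and 3, with a mean difference of -0.18 ± 0.12 (SE), and its other probe sets gave -0.19 and -0.20. It was -0.30 without experiment 1 and -0.075 without experiment 2. Acat1, the acetoacetyl-CoA thiolase that also serves ketone body use, read 9.02, 9.04 and 8.95 in controls and 9.40, 9.39 and 8.91 in irradiated cells. Irradiated arrays 1 and 2 were above every control and array 3 was below every control. The difference was 0.23 ± 0.12 (SE), or 0.365 without experiment 3. The other Acat1 probe sets, both bright, gave 0.23 and 0.08.

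The auxiliary enzymes for unsaturated chains, Eci1, Eci2 and Decr1, had mean differences of 0.15, 0.16 and 0.14. They shift or reduce double bonds so that the chain can be oxidised. Eci1 read 9.08, 8.88 and 8.81 in controls and 9.34, 9.06 and 8.82 in irradiated cells, higher in all 3 experiments but by 0.01 in experiment 3. Its difference was 0.15 ± 0.10 (SE, limma adjusted p = 0.728), and the groups overlapped. Without experiment 1 it was 0.095. None of the 3 reached an unadjusted p of 0.05. Eci2 and Decr1 each differed by -0.05 in experiment 3, against 0.34 and 0.38 in experiment 1.

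Peroxisomal members differed by little. Ehhadh, the bifunctional enzyme and a classical PPARα target in liver, was dim, reading 4.98, 5.04 and 5.04 in controls and 4.99, 4.87 and 4.91 in irradiated cells. Its difference was -0.10 ± 0.10 (SE) and the groups overlapped. Hsd17b4, which does the same steps for branched chains, differed by 0.15, 0.09 and -0.23. Pex11a, which takes part in peroxisome division, differed by -0.06 on average.

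The thiolase gene Acaa1a gave different values by probe set. Its brightest probe set read between 8.07 and 8.10 in controls and between 8.04 and 8.10 in irradiated cells, a difference of -0.02. Its other probe set read 6.61, 6.62 and 6.61 in controls and 6.58, 6.32 and 6.0 in irradiated cells, a difference of -0.31 ± 0.13 (SE). The probe set of the close paralog Acaa1b read 6.50, 6.44 and 6.55 in controls and 6.49, 6.10 and 5.99 in irradiated cells. It was nearly level in experiment 1 and lower in experiments 2 and 3, as was the dimmer Acaa1a probe set. The type suffix of both Acaa1a probe sets marks probes that may also bind other transcripts, so these genes are uncertain.

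The 4 acyl-CoA thioesterases, which split acyl-CoA into free acid and CoA, each kept 1 sign over the experiments (30.8% of all genes did). In no other role group did every member do so. Of the 8 other thioesterases measured, 2 kept 1 sign. Acot2, the mitochondrial form, read 8.31, 7.82 and 7.50 in controls and 8.56, 8.04 and 8.46 in irradiated cells. The groups overlapped, since control array 1 was above irradiated array 2. The differences were 0.25, 0.22 and 0.96, with a mean of 0.48 ± 0.16 (SE), 1.39-fold higher, a limma p of 0.024 and an adjusted p of 0.575. Without experiment 3 the difference was 0.235. A second and dimmer Acot2 probe set, at 5.74 in controls, differed by 0.31, -0.11 and -0.06.

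Acot1, the cytosolic form, lies next to Acot2 on the same chromosome with 0 annotated genes between them, and its values went the other way. It was dim, reading 5.82, 5.31 and 5.25 in controls and 5.09, 5.06 and 5.21 in irradiated cells. Every irradiated array was below every control, and the difference was -0.34 ± 0.15 (SE), or -0.145 without experiment 1. Acot1 and Acot2 are closely related in sequence, and the probe sets could share transcripts.

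Acot7, a cytosolic thioesterase best known from brain, read 8.84, 8.70 and 8.81 in controls and 8.71, 8.52 and 8.33 in irradiated cells. Its difference was -0.26 ± 0.11 (SE), with a limma p of 0.0517 and an adjusted p of 0.619, and irradiated array 1 lay just above control array 2. Without experiment 3 it was -0.155. The peroxisomal Acot8 read 7.34, 7.30 and 7.31 in controls and 7.07, 7.17 and 7.21 in irradiated cells. Its groups did not overlap, but the difference was small, -0.17 ± 0.10 (SE, limma adjusted p = 0.694). Of 8 other thioesterases measured, 0 reached an unadjusted p of 0.05, 3 were higher and 5 lower. The 3 above the level of 6, Acot9, Acot11 and Acot13, differed by -0.02, -0.10 and -0.02.

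Among the receptors, Ppard, the broadly expressed PPARδ, read 6.08, 5.84 and 6.23 in controls and 5.62, 5.70 and 5.90 in irradiated cells. It was lower in all 3 experiments, although irradiated array 3 was above control array 2. The difference was -0.31 ± 0.11 (SE), 1.24-fold lower, with a limma p of 0.0242 and an adjusted p of 0.575. The signal was close to the level of 6, and a dimmer probe set, at 4.75 in controls, differed by 0.00. Ppara, the liver and brown fat receptor, was dim at 4.59, 4.37 and 4.48 in controls and 4.56, 4.54 and 4.57 in irradiated cells. Its difference of 0.08 was within its SE of 0.10, and its other 2 probe sets, dimmer still, differed by -0.40 ± 0.23 (SE) and -0.05.

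On their brightest probe sets, the regulatory PPAR targets gave mean differences close to 0, with opposite signs in experiments 1 and 3. Pdk4, the kinase that shuts off pyruvate dehydrogenase, read 10.49, 10.20 and 10.20 in controls and 10.65, 10.19 and 10.01 in irradiated cells. Its difference was -0.01 ± 0.11 (SE, 95% interval -0.27 to 0.25). Angptl4, a secreted inhibitor of lipoprotein lipase, read 11.43, 11.42 and 11.57 in controls and 11.65, 11.38 and 11.28 in irradiated cells, a difference of -0.04 ± 0.12 (SE). Array 1 of the irradiated group was the highest of the 6 and array 3 the lowest. Its second probe set read 7.16, 6.76 and 7.20 in controls and 8.08, 7.78 and 7.14 in irradiated cells. That gave 0.92, 1.02 and -0.06, a mean of 0.63 ± 0.21 (SE), with a limma p of 0.0231 and an adjusted p of 0.575. The 2 probe sets of Angptl4 thus gave unlike differences in experiments 1 and 2.

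**Figure D4:**
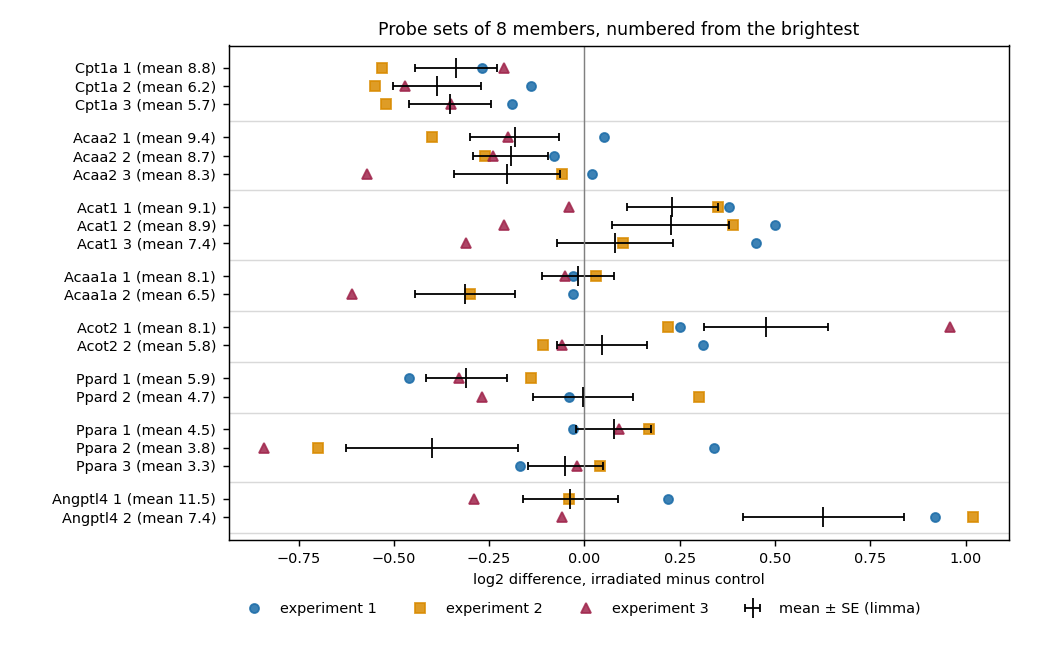
Log2 difference for every probe set of 8 members, numbered from the brightest, with the overall mean level in brackets, 1 symbol per experiment and the limma mean ± SE. The 3 Cpt1a probe sets lie left of 0 in every experiment, while the probe sets of Acot2, Angptl4, Acaa1a and Ppara do not match each other.

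Of 105 further genes of the pathway, 91 were measured and 8, or 8.79%, had an unadjusted p under 0.05, 3 higher and 5 lower. This is near the share of all genes, 8.31%, with 3.7% higher and 4.61% lower. None of the 91 passed adjustment over all probe sets. Their median differences were 0.11, 0.00 and -0.09 in experiments 1, 2 and 3, the same signs as the members in experiments 1 and 3. In experiment 3, 59 of 91 were lower (49.9% of all genes were). The fat cell markers Pparg, Cidec, Fabp4 and Lpl are among these 91, so the lists overlap. Of other peroxisomal oxidation genes, 13 of 15 were higher in experiment 1 and 13 of 15 were lower in experiment 3 (48% and 49.9% of all genes). Medians in experiments 1 and 3 also had these signs for synthetase and branched-chain genes (0.08, -0.05) and carnitine supply (0.16, -0.07). They did so for PPAR coregulators (0.12, -0.195), other PPAR targets (0.08, -0.14) and pyruvate dehydrogenase genes (0.17, -0.20). The thioesterase and ketone body lists did not follow, and only 3 of 8 and 1 of 3 of their genes were bright. The 8 other thioesterases had medians of -0.18 in experiment 1 and 0.04 in experiment 3, with 2 of 8 higher in experiment 1, and the 3 ketone body genes had medians of -0.10 and 0.23. Among the peroxisomal genes Acaa1b differed by -0.30, Pecr, a reductase of unsaturated acyl-CoA, by 0.15 and the acyl-CoA transporter Abcd2 by 0.11. Among 16 acyl-CoA synthetase and branched-chain genes, 0 reached an unadjusted p of 0.05. There Ivd, of leucine breakdown, differed by 0.17, the propionyl-CoA carboxylase subunit Pcca by 0.14 and the synthetase Acsl4 by -0.16.

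The PPAR coregulators held the gene with the smallest unadjusted p among the members and these lists. Nrip1, a corepressor of nuclear receptors that restrains oxidation genes in fat cells, read 9.55, 9.58 and 9.34 in controls and 10.17, 10.05 and 9.79 in irradiated cells. Every irradiated array was above every control, by 0.62, 0.47 and 0.45 within the experiments. The difference was 0.51 ± 0.10 (SE), with a limma p of 0.00146 and an adjusted p of 0.529. Its next brightest probe sets gave 0.25 and 0.27. The coactivator Ncoa2 differed by -0.25 ± 0.09 (SE) and the RXR partner Rxrb by -0.17. Ppargc1a, the coactivator that drives mitochondrial genes, was dim at 4.79 in controls and differed by -0.49, and is singled out with its values known.

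The catalytic subunits of AMP kinase, which relieves the block on Cpt1, went opposite ways. Prkaa1 read 8.12, 8.04 and 7.83 in controls and 7.73, 7.60 and 7.44 in irradiated cells, and the groups did not overlap. Its difference was -0.41 ± 0.09 (SE), with a limma p of 0.00392 and an adjusted p of 0.536. Prkaa2, dim and also singled out with its values known, differed by 0.40 ± 0.10 (SE), while its other probe sets gave -0.10 and 0.14. In the same list the carnitine transporter Slc22a5 differed by 0.25 and Slc22a4 by -0.19 (-0.325 without experiment 3). Of its 11 genes, 1 was higher and 1 lower at an unadjusted p under 0.05 (3.7% and 4.61% of all genes).

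Among 19 other PPAR targets, 5 were higher and 14 lower on average (9299 and 8721 of all 18193 genes). In each direction 1 reached an unadjusted p of 0.05 (3.7% of all genes higher, 4.61% lower). These were Cyp4a14 at 0.32 and Ucp3 at -0.42, both dim and singled out in the same way. Above the level of 6, Gpd1, which supplies glycerol phosphate, differed by 0.14, -0.85 and -0.67. Its mean was -0.46, and -0.76 without experiment 1 or -0.265 without experiment 2. The lipid droplet protein Hilpda differed by 0.32, 0.00 and 0.79, a mean of 0.37 that was 0.16 without experiment 3, and Vnn1 by -0.11 on average. Of 9 pyruvate dehydrogenase genes, 1 was lower at an unadjusted level of 0.05 (4.61% of all genes were). This was Pdp2, a phosphatase that opposes the Pdk kinases, at -0.28 ± 0.11 (SE), or -0.185 without experiment 1. Pdp1 differed by 0.26, -0.14 and 0.79, a mean of 0.30 that was 0.06 without experiment 3 and 0.525 without experiment 2. Pdha1 differed by 0.08. Of 3 ketone body genes measured, Oxct1 differed by -0.13 and none reached an unadjusted p of 0.05.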

How the data were processed

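Total RNA (200 ng) of 6 cultures was labelled for an Affymetrix mouse array, per the labels' protocols. Values were deposited on the log2 scale, with RMA, affy and limma named in the submitters' processing notes. For versions, background step and genome build, nothing is given in the sources used here. Of 45101 probe sets, 64 array controls were left out. The platform annotation gives 34945 of the rest 1 symbol, 932 several and 9160 none, and 18193 genes were read from their brightest single-symbol probe set.

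Groups were compared with limma 3.58.1 (R 4.3.3, lmFit and eBayes; two-sided tests; experiment as block), with p-values adjusted over all probe sets. The design text pairs each culture with its own control. Deviations from group means correlated at 0.787, 0.028 and 0.324 within the pairs. Across pairs they ran from -0.67 to 0.552. Control 3 correlated more with irradiated 2 (0.552) than with its own pair, and control 2 more with irradiated 3 (0.179). The fit, checked on simulated data, had 2 residual degrees of freedom. No arrays held identical values. The members and lists were chosen with earlier results of these data known. Values on every array are given for 9 measured genes fixed by role (Cpt1b, also fixed, was unmeasured) and for the 8 bright members with the largest statistic, and up to 3 bright genes per pathway list are named. Others so shown (Hadhb, Acaa1a, Acot1, second probe sets) were chosen after their values were seen. Alternatives concerned the block, normalization, leaving out an experiment or the dim probe sets, prior, probe set choice and moderation. Figures used matplotlib 3.10.9.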

Additional observations from a re-analysis of the deposited data

Results flagged for a closer look

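The spiked-in hybridisation controls enter no test here. In experiment 3, in which 29 of 32 members were lower, they read 0.50 higher with irradiation than without.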

How the results depend on the processing

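Without the replicate block, 1 member (Cpt1a) had an unadjusted p under 0.05, against 3 with it. With the experiment as a random block there were 5, and 2 genes passed adjustment over all probe sets. The ordinary paired statistic gave 0 members and 5 genes past adjustment, none of them a member. With an experiment left out, 0 to 3 members had such a p, 9 to 19 had 1 sign in the remaining experiments (fewer signs must then match), and the median ran from -0.09 to 0.07. The mean of all probe sets turned Angptl4 to 0.295, Ppara to -0.12, Abcd2 to -0.045 and Acot11 to 0.0117. The probe set with the largest variance turned Angptl4 to 0.63, Ppara to -0.40, Ncoa2 to 0.31, Acot11 to 0.13 and Slc22a5 to -0.0033. Leaving out an experiment turned the sign of 12 of the 32 members' mean differences. For this count and the counts with an experiment left out, no share over all genes is given. They are therefore not read as a trait of the members. Among genes named by the fixed rule, Acadm ranged from -0.01 to 0.17, Pdk4 from -0.10 to 0.075, Angptl4 from -0.165 to 0.09, Acot9 from -0.08 to 0.045, Acot11 from -0.21 to 0.035, Acot13 from -0.045 to 0.005 and Vnn1 from -0.18 to 0.005. The causes were not tested. In all, 414 of 430 values of single named genes kept their direction. None of these genes passed adjustment in any setting, so the threshold does not tell the settings apart. Changing the block, prior or moderation, or leaving out dim probe sets, leaves a gene's mean difference as it was, so its direction could not turn there. Most members differ in sign between experiments 1 and 3, and 3 pairs leave intervals of at least ± 0.23, which limits every statement on a single member.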
